A study of Arabidopsis thaliana with 6 samples.

Results

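Intracellular immune receptors of Arabidopsis thaliana are described here in wild-type seedlings given the peptide CLE9 or water. The set holds 49 genes of the 27416 in the expression table, listed by gene ID and chosen with earlier results of these data known. Of these, 23 are nucleotide-binding leucine-rich repeat receptors (NLRs) of the class with an N-terminal Toll/interleukin-1 receptor (TIR) domain. The others are 9 NLRs of the coiled-coil type, 5 helper NLRs of the RPW8 type, and 12 short TIR proteins that lack leucine-rich repeats. All 49 genes have a row in the table. The 3 CLE9 libraries came from 7-day-old wild-type seedlings treated with 200 nM CLE9, and the 3 control libraries from 7-day-old wild-type seedlings treated with water. No source used here states how long the treatment lasted. Nothing says that the 3 libraries of a treatment are separate cultures, and the p-values therefore measure a spread between libraries that may be technical.

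NLRs sit inside the cell and detect pathogen effectors, either directly or by watching a host protein that the effector alters. Sensor NLRs with a coiled coil can form membrane channels themselves, whereas TIR receptors act as enzymes whose small-molecule products are read by EDS1 with PAD4 or SAG101 and passed on to the helper NLRs of the ADR1 and NRG1 groups. Plants hold the transcripts of many of these genes low, because overexpressed or overactive receptors cause autoimmunity and stunted growth. CLE9 belongs to a family of small secreted peptides that are bound by receptor kinases at the cell surface.

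The authors' values are FPKM, fragments scaled to transcript length and to the mapped fragments of the library, so levels of different genes can be compared per length. From the steps between low values of 5061 single-exon genes, the CLE9 libraries were estimated to hold 19.9 to 26.9 M fragments and the water libraries 23.2 to 30.7 M (M, mega). The 2 libraries numbered 2 stood apart from the others. CLE9 replicate 2 had the lowest level of all 4 shoot markers and all 4 root markers, with a summed shoot level of 17076 FPKM where the highest CLE9 library had 49314 FPKM and the water libraries had 39151 to 44933 FPKM. The summed root level was 2.88 FPKM in CLE9 replicate 2 and 20.4 FPKM in water replicate 2, the lowest of each group, and reached 55.5 FPKM in CLE9 and 61.3 FPKM in water libraries. Of 2 seed storage genes, CRU3 was listed at 0 in all 6 libraries. The other, 2S albumin 1, had 0.319 FPKM in CLE9 replicate 2, 0.238 FPKM in water replicate 2 and 0.0464 FPKM in water replicate 3, and was listed at 0 elsewhere. Summed flower markers stayed between 0.889 and 2.26 FPKM in CLE9 and between 1.05 and 1.13 FPKM in water. Whole seedlings were sampled, so fewer cells of a type and less RNA per cell cannot be told apart.

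Most receptor transcripts had higher mean levels in CLE9 than in water seedlings, but none passed the threshold of the test on group alone. On the log2(FPKM + 1) scale, 41 of the 49 genes had a higher mean in CLE9, and 38 of the 44 that were abundant enough to test (a mean of at least 1 FPKM), where 42.6% of all 17812 genes tested did. The median CLE9 minus water change was 0.38 over all 49 genes and 0.44 over the 44 tested, against -0.06 over all genes tested. Changes ranged from -0.29 for AT4G19500 to 1.61 for ZAR1. Within pairs of libraries that share a replicate number, the median change of the 49 genes was 0.49 for replicate 1, 0.28 for replicate 2 and 0.45 for replicate 3.

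With the moderated test of limma on group alone, 0 of 44 receptors passed an adjusted p of 0.05, where 0.0% of all genes tested passed as higher and 0.00561% as lower. At an unadjusted p under 0.05, 10 receptors were higher and 0 were lower, against 5.83% and 3.07% of all genes tested. Groups did not overlap, with every CLE9 library above every water library, for 10 of 44 receptors (8.51% of all genes tested), and lay the other way for 1 (7.47%). The 10 were RPS4, RRS1, RRS1B, WRKY19, DSC1, LAZ5, AT4G19510, ZAR1, LOV1 and TN13. All 3 pairs were higher in CLE9 for 30 of 44 receptors (19.8% of all genes tested) and lower for 2 (26.0%).

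Because both replicate 2 libraries differed from the rest, the comparison was also made with the replicate number as a block and without those 2 libraries. The pairing rests largely on replicate 2, as replicates 1 and 3 of the 2 groups correlated more closely across numbers than within them. With the block, 3 of 44 receptors rose (1.75% of all genes tested) and 0 fell (0.247%): AT1G66090, AT5G41750 and VICTR. These calls were narrow, and all 3 were lost in blocked fits without pair 1, without pair 3, with a pseudocount of 0.1 or without the filter on low values. The limma adjusted p was then 0.0618, 0.0752 and 0.0636 for AT1G66090, AT5G41750 and VICTR with the smaller pseudocount, and 0.0715, 0.0868 and 0.0945 without the filter. Without both replicate 2 libraries, 19 of 44 rose (8.41%) and 0 fell (2.95%), and these 19 include the 3. The 19 were 10 of 22 TIR receptors, 4 of 8 coiled-coil receptors, 2 of 5 helpers and 3 of 9 short TIR proteins. The TIR receptors among them were RPS4, RRS1, DSC1, RPS6, WRR4, LAZ5, VICTR, RAC1, AT5G41740 and AT5G41750, and the coiled-coil receptors RPM1, RPS2, ZAR1 and LOV1. That comparison rests on 2 libraries in each group, and 18 receptors rose when it also kept the block.

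**Figure D1:**
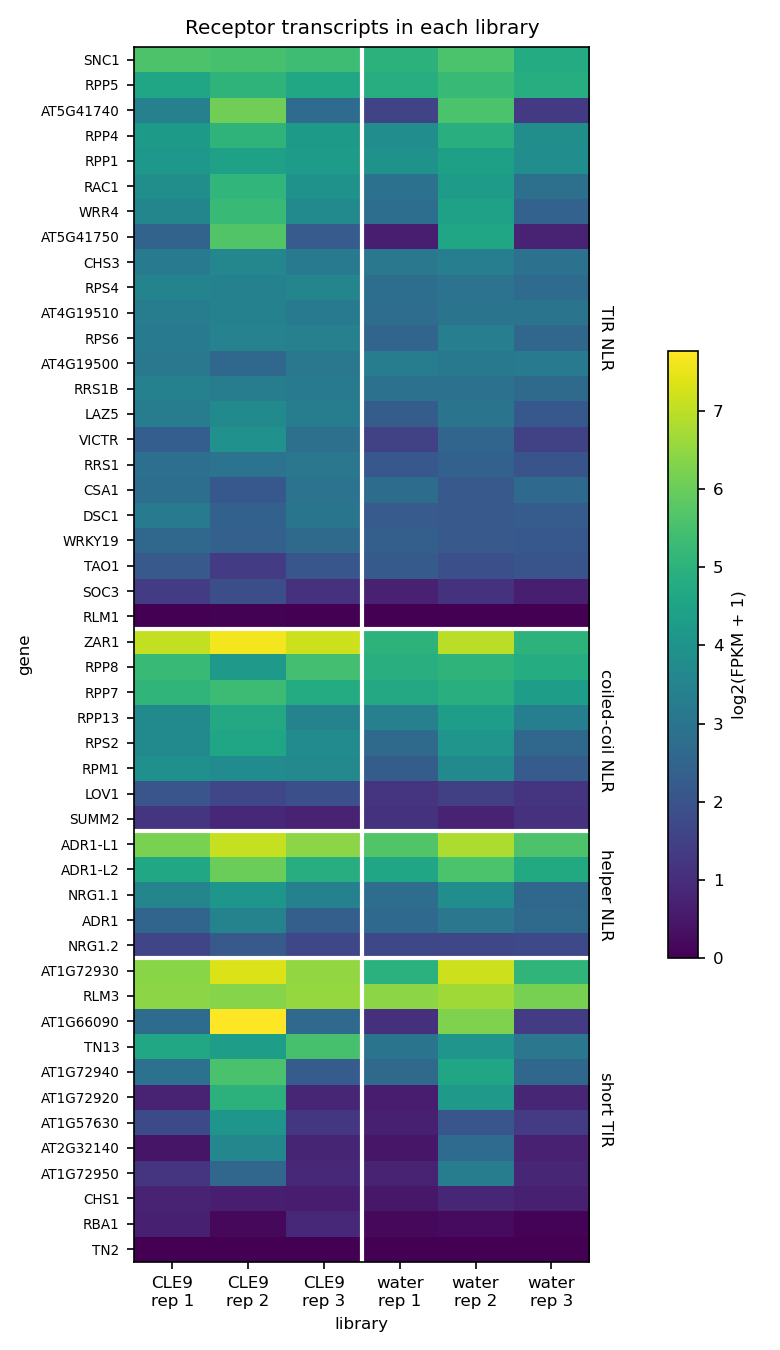
Level of the receptor genes described, as log2(FPKM + 1), in the 3 CLE9 libraries (left) and the 3 water libraries (right), grouped by class and ordered by mean level within a class. The column of replicate 2 is brighter than its neighbours in both groups for many genes, most visibly for short TIR genes such as AT1G66090, at 218 FPKM in CLE9 replicate 2 and 76.2 FPKM in water replicate 2.

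The paired TIR receptors RPS4 and RRS1, which act together as a detector of bacterial effectors, were higher in CLE9 in every replicate. RPS4 (AT5G45250, chr5:18321914-18326022 of TAIR10, minus strand) had 10.4, 9.72 and 10.5 FPKM in CLE9 replicates 1 to 3, against 6.06, 6.79 and 5.54 FPKM in water replicates 1 to 3. Its partner RRS1 (AT5G45260, chr5:18326203-18332609, plus strand), which carries a WRKY domain that serves as bait for effectors, had 6.12, 6.79 and 7.46 FPKM in CLE9, against 3.34, 4.35 and 3.07 FPKM in water. For both genes all CLE9 libraries lay above all water libraries, replicate 2 included. RPS4 averaged 10.2 ± 0.42 FPKM in CLE9 and 6.13 ± 0.62 FPKM in water (SD, n = 3 each), a change of 0.65 ± 0.14 (SE) on the log2(FPKM + 1) scale with a limma adjusted p of 0.286. RRS1 averaged 6.79 ± 0.67 FPKM in CLE9 and 3.59 ± 0.68 FPKM in water, a change of 0.77 ± 0.17 with an adjusted p of 0.291. Without both replicate 2 libraries, both genes rose, RPS4 by 0.75 and RRS1 by 0.89, with a limma adjusted p of 0.0185 for each.

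The RPS4 and RRS1 genes are transcribed away from each other, and their ends in the authors' table lie 180 bases apart. RefSeq places the 2 starts closer, in its TAIR10.1 assembly, with 27 bases between them (chr5:18326176-18326202, plus strand); this stretch is shown because both genes start at its edges.
RPS4-RRS1 gap: tgagatttgagtggttgaatgtccaat
It holds neither motif searched below.

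Another divergent pair lies on chromosome 4. DSC1 (AT4G12010), a TIR receptor tied to the transcription factor CAMTA3, and WRKY19 (AT4G12020), an unusual receptor with WRKY and kinase domains, have 262 bases between their table ends. In RefSeq's TAIR10.1 the 2 gene models overlap instead. The bases before the WRKY19 start (plus strand) end at 7201521, and those before the DSC1 start (minus strand) begin at 7201572. No source used here states whether fragments were counted by strand. DSC1 had 8.05, 4.37 and 7.09 FPKM in CLE9, against 3.67, 3.48 and 3.81 FPKM in water. WRKY19 had 5.22, 4.18 and 5.44 FPKM in CLE9, against 4.11, 3.55 and 3.38 FPKM in water. In both genes the groups did not overlap and CLE9 replicate 2 was the lowest CLE9 library. DSC1 changed by 0.66 ± 0.23 with a limma adjusted p of 0.488, and without both replicate 2 libraries it rose by 0.85 with an adjusted p of 0.0147. RRS1B (AT5G45050), a paralog of RRS1, had 9.61, 8.63 and 8.06 FPKM in CLE9, against 6.54, 6.65 and 5.47 FPKM in water, again without overlap.

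LAZ5 (AT5G44870, chr5:18114666-18118608, plus strand), a TIR receptor known from mutants that block runaway cell death, was higher in every pair. It had 8.83, 12.2 and 8.60 FPKM in CLE9, against 3.94, 6.94 and 3.41 FPKM in water. The groups did not overlap, and replicate 2 was the highest library in each. The change was 0.95 ± 0.27 with a limma adjusted p of 0.383, and the 3 pairs differed by 0.99, 0.73 and 1.12. With the block the adjusted p was 0.0515, just outside the threshold, and without both replicate 2 libraries LAZ5 rose by 1.06 with a limma adjusted p of 0.00722.

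VICTR (AT5G46520, chr5:18867767-18872415, plus strand), a TIR receptor known for arresting root growth in response to a small molecule, had 3.97, 14.2 and 6.24 FPKM in CLE9, against 1.82, 4.81 and 1.91 FPKM in water. Each CLE9 library exceeded the water library of its number, but CLE9 replicate 1 lay below water replicate 2. On group alone the change was 1.18 ± 0.49 with a limma adjusted p of 0.574. With the block VICTR rose, with an SE of 0.17 and an adjusted p of 0.0486 (0.0636 with a pseudocount of 0.1). Of the 75-base words in its exons, 59.4% also occur in its neighbour AT5G46510, so fragments of the 2 genes may be mixed, and no source used here states how the authors assigned shared fragments. Summed over both genes, a step added after the data were seen, the level was 13.0, 29.1 and 20.7 FPKM in CLE9, against 5.27, 11.5 and 5.03 FPKM in water. The sum also rose with the block, by 1.42 ± 0.19 with a limma adjusted p of 0.0426.

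The neighbours AT5G41740 and AT5G41750, TIR receptors with 789 bases between them on chromosome 5, were far higher in replicate 2 than in the other libraries of either group. AT5G41750 had 4.52, 49.4 and 3.66 FPKM in CLE9, against 0.582, 22.9 and 0.710 FPKM in water. AT5G41740 had 9.71, 67.0 and 5.61 FPKM in CLE9, against 2.04, 47.0 and 1.49 FPKM in water. In both groups replicate 2 was the highest library by far, and within each replicate number the CLE9 library was the higher one. AT5G41750 changed by 1.44 ± 1.38 on group alone, with a limma adjusted p of 0.809, and rose with the block, where the SE was 0.19 and the adjusted p 0.0423 (0.0752 with a pseudocount of 0.1). The 2 genes share sequence: 8.5% of the 75-base words of AT5G41750 occur in AT5G41740.

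The chromosome 4 cluster that spans 77090 bases holds RPP4 and RPP5, both receptors of downy mildew, SNC1, whose gain-of-function mutant is a standard model of plant autoimmunity, and the short TIR gene RLM3, needed for resistance to fungi. SNC1 (AT4G16890) had 47.3, 45.0 and 40.0 FPKM in CLE9, against 30.7, 46.1 and 26.6 FPKM in water, a change of 0.38 ± 0.24 with a limma adjusted p of 0.724. RPP4 (AT4G16860) had 18.0, 32.0 and 17.7 FPKM in CLE9, against 13.1, 28.4 and 13.3 FPKM in water, a change of 0.33 ± 0.38 with an adjusted p of 0.847. Groups overlapped in both genes because water replicate 2 was high. RPP5 (AT4G16950) had 22.5, 32.1 and 23.7 FPKM in CLE9, against 27.9, 37.2 and 28.0 FPKM in water, and changed by -0.24 ± 0.22 with a limma adjusted p of 0.794. It was lower in CLE9 in all 3 pairs, though the groups overlapped. RLM3 (AT4G16990) had 85.4, 81.4 and 92.2 FPKM in CLE9, against 84.7, 101 and 72.2 FPKM in water, a change of 0.02 ± 0.20 with an adjusted p of 0.987. Of the 75-base words of RPP5, 35.7% occur elsewhere in the genome; the share was 16.6% for RPP4 and 9.4% for SNC1, so these values are uncertain where shared fragments were split.

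The linked sets of CHS3 with CSA1 and of SOC3 with CHS1 and TN2 overlapped between groups or stayed low. CHS3 (AT5G17890), whose altered form causes chilling-sensitive autoimmunity, had 8.39, 11.2 and 8.39 FPKM in CLE9, against 7.64, 9.08 and 6.67 FPKM in water, a change of 0.23 ± 0.19 with a limma adjusted p of 0.779. RefSeq's notes name a LIM domain in CHS3 and do not name a TIR domain. They also name no leucine-rich repeats for RPS4 or ZAR1, so a missing entry does not show that a domain is absent. CHS3 works with the TIR receptor CSA1, which lies 3870 bases away. CSA1 (AT5G17880) had 5.95, 3.37 and 6.82 FPKM in CLE9, against 5.66, 3.54 and 5.27 FPKM in water, a change of 0.11 ± 0.28 with an adjusted p of 0.943. Both genes overlapped between groups, and replicate 2 was the highest library for CHS3 and the lowest for CSA1 in each group. SOC3 (AT1G17600), a TIR receptor that acts with the short TIR proteins CHS1 and TN2, had 1.60, 2.64 and 1.13 FPKM in CLE9, against 0.645, 1.22 and 0.571 FPKM in water, a change of 0.60 ± 0.27 with a limma adjusted p of 0.601. Every pair was higher in CLE9, and CLE9 replicate 3 lay just below water replicate 2. CHS1 (AT1G17610) stayed under 1 FPKM, with 0.714, 0.557 and 0.531 FPKM in CLE9, against 0.408, 0.786 and 0.601 FPKM in water, and TN2 (AT1G17615) was listed at 0 in all 6 libraries; neither was tested.

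The adjacent genes AT4G19500 and AT4G19510, known as RPP2A and RPP2B and needed together against one strain of downy mildew, went opposite ways. AT4G19500 had 7.68, 5.03 and 7.59 FPKM in CLE9, against 8.91, 7.83 and 8.33 FPKM in water, the lone receptor whose CLE9 libraries all lay below the water libraries. AT4G19510 had 8.72, 9.68 and 8.41 FPKM in CLE9, against 5.93, 6.99 and 6.93 FPKM in water. It was without overlap in the other direction. Their changes were -0.29 ± 0.20 and 0.38 ± 0.15, with limma adjusted p-values of 0.735 and 0.530, and the difference between the 2 genes was not tested.

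Of the other TIR receptors, RAC1 and WRR4, which act against white rust, were higher in CLE9 in all 3 pairs and highest in replicate 2. RAC1 (AT1G31540) had 13.2, 33.7 and 14.4 FPKM in CLE9, against 6.62, 18.8 and 6.34 FPKM in water. WRR4 (AT1G56510) had 10.9, 36.5 and 11.9 FPKM in CLE9, against 5.98, 20.7 and 4.42 FPKM in water. Both overlapped between groups through replicate 2. RPS6 (AT5G46470), which answers a bacterial effector, had 8.04, 9.98 and 9.45 FPKM in CLE9, against 4.82, 9.07 and 4.93 FPKM in water. The downy mildew receptor RPP1 (AT3G44480) had 16.6, 20.8 and 18.1 FPKM in CLE9, against 14.7, 20.2 and 13.0 FPKM in water, with 35.4% of its 75-base words found elsewhere. In both, water replicate 2 reached into the CLE9 range. TAO1 (AT5G44510), which adds to recognition of a bacterial effector, had 3.50, 1.53 and 3.26 FPKM in CLE9, against 3.55, 2.72 and 3.03 FPKM in water, with overlap. RLM1 (AT1G64070), a receptor of a blackleg fungus, had at most 0.0288 FPKM in CLE9 and 0.0143 FPKM in water, both in replicate 2, and was not tested.

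Coiled-coil receptors are fewer, and ZAR1, the receptor whose wheel-shaped resistosome forms a calcium channel, had the highest level among them and the largest change of all 49 genes. ZAR1 (AT3G50950, chr3:18935674-18938799, plus strand) had 134, 196 and 144 FPKM in CLE9, against 31.8, 125 and 31.6 FPKM in water. The groups did not overlap, and water replicate 2 lay near the CLE9 libraries. ZAR1 averaged 158 ± 33.7 FPKM in CLE9 and 62.8 ± 53.9 FPKM in water (SD, n = 3 each), a change of 1.61 ± 0.57 with a limma adjusted p of 0.488. Without both replicate 2 libraries it rose by 2.09, with an adjusted p of 0.000703, and leaving out water replicate 2 alone gave a change of 2.26 with a limma adjusted p of 0.0328. Its end overlaps 103 bases of AT3G50960 on the other strand, which had 1.46 to 3.24 FPKM in CLE9 and 1.82 to 2.75 FPKM in water.

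RPM1 and RPS2 both guard RIN4, a membrane protein that bacterial effectors attack. RPM1 (AT3G07040) had 14.0, 12.3 and 11.6 FPKM in CLE9, against 3.95, 11.8 and 3.75 FPKM in water. RPS2 (AT4G26090) had 12.3, 22.6 and 12.4 FPKM in CLE9, against 5.40, 15.7 and 5.22 FPKM in water. In both genes water replicates 1 and 3 were below every CLE9 library, and water replicate 2 was inside the CLE9 range. RPS2 shares 423 bases with AT4G26100 on the other strand, which had 12.3 to 16.8 FPKM in CLE9 and 15.7 to 17.5 FPKM in water, and no source used here states whether fragments were counted by strand. RPM1 changed by 1.02 ± 0.41 with a limma adjusted p of 0.548, and it rose by 1.504 without both replicate 2 libraries, with an adjusted p of 0.003. The RPM1 pairs were uneven, at 1.60 and 1.41 for replicates 1 and 3 but 0.06 for replicate 2.

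LOV1 (AT1G10920), a receptor through which a fungal toxin makes plants susceptible, had 3.16, 2.13 and 2.69 FPKM in CLE9, against 1.26, 1.79 and 1.26 FPKM in water. Its groups did not overlap, and the change was 0.58 ± 0.19 with a limma adjusted p of 0.465; without both replicate 2 libraries LOV1 rose by 0.79 with an adjusted p of 0.0238. RPP7 (AT1G58602), a downy mildew receptor, had 33.1, 39.5 and 26.5 FPKM in CLE9, against 24.7, 28.0 and 19.1 FPKM in water. It was higher in every pair, CLE9 replicate 3 lay below water replicate 2, and it changed by 0.45 ± 0.23 with a limma adjusted p of 0.658. RPP8 (AT5G43470) had 37.2, 17.6 and 42.3 FPKM in CLE9, against 28.5, 32.6 and 26.9 FPKM in water. Its pair of replicate 2 went the other way from pairs 1 and 3, and 366 of its 75-base words occur in AT5G48620. RPP13 (AT3G46530) had 12.0, 24.8 and 10.2 FPKM in CLE9, against 9.36, 19.2 and 9.33 FPKM in water, with overlap. SUMM2 (AT1G12280), which watches a MAP kinase cascade, had 1.24, 0.851 and 0.693 FPKM in CLE9, against 1.201, 0.669 and 1.15 FPKM in water, and its mean was too low to test. Its groups overlapped.

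**Figure D2:**
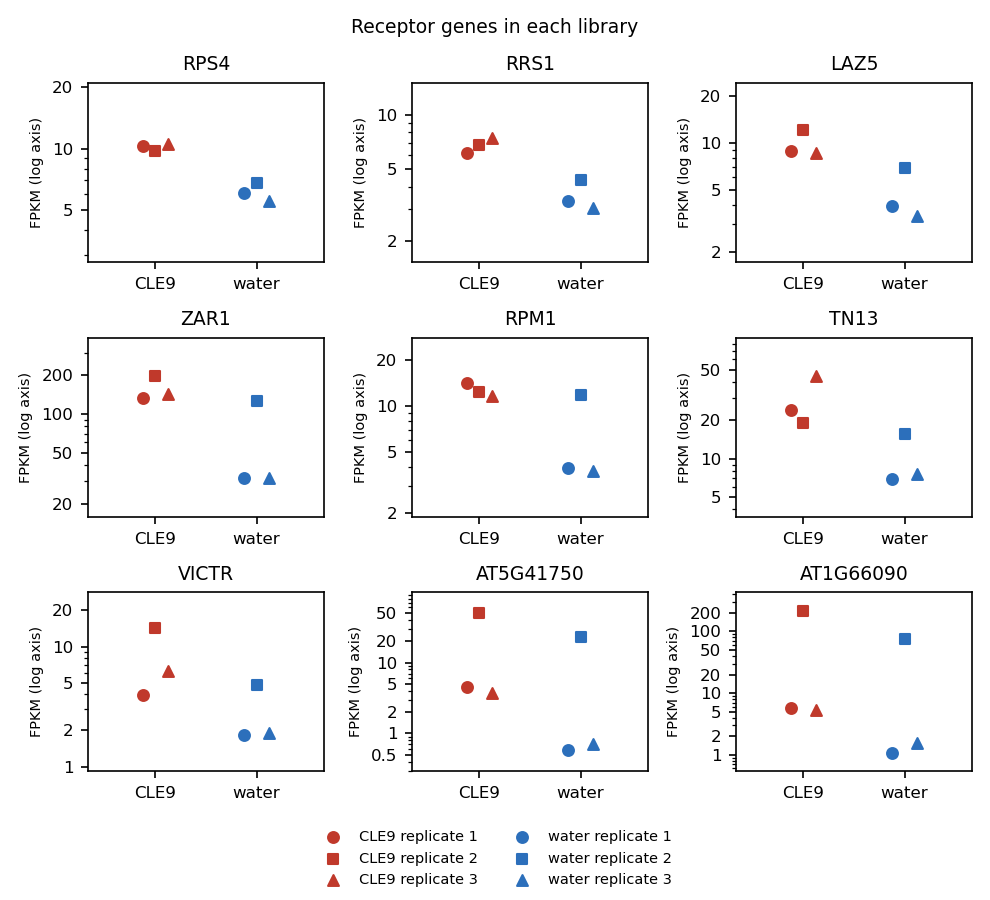
FPKM (log axis) of 9 receptor genes in CLE9 (red, left) and water (blue, right) libraries; circles, squares and triangles are replicates 1, 2 and 3. RPS4, RRS1, LAZ5, ZAR1 and TN13 lie apart by group in all replicates. ZAR1 and RPM1 are high in water replicate 2, and of these RPM1 alone overlaps between groups. AT5G41750 and AT1G66090 follow the replicate number in both groups.

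The helper NLRs carry signals from many sensors, and ADR1-L1 was the most abundant of the 5. ADR1-L1 (AT4G33300) had 72.7, 135 and 84.1 FPKM in CLE9, against 49.3, 111 and 47.6 FPKM in water, a change of 0.55 ± 0.41 with a limma adjusted p of 0.764. ADR1-L2 (AT5G04720) had 24.4, 63.8 and 27.5 FPKM in CLE9, against 23.4, 47.0 and 25.1 FPKM in water, a change of 0.20 ± 0.45 with an adjusted p of 0.932. Both were higher in CLE9 in each pair, but replicate 2 exceeded the other libraries of its group in each and the groups overlapped. ADR1 (AT1G33560) had 4.79, 10.2 and 4.14 FPKM in CLE9, against 5.29, 7.38 and 5.41 FPKM in water, a change of -0.01 ± 0.33 with a limma adjusted p of 0.996. NRG1.1 (AT5G66900) had 10.6, 16.1 and 9.73 FPKM in CLE9, against 5.82, 13.1 and 5.16 FPKM in water, a change of 0.62 ± 0.37 with an adjusted p of 0.713. NRG1.2 (AT5G66910), which lies 443 bases from NRG1.1, had 2.09, 3.51 and 2.17 FPKM in CLE9, against 2.23, 2.13 and 2.32 FPKM in water, a change of 0.13 ± 0.20 with an adjusted p of 0.891. ADR1 and NRG1.2 were higher in CLE9 in the pair of replicate 2 and slightly lower in the other pairs. Without both replicate 2 libraries, ADR1-L1 rose by 0.68 and NRG1.1 by 0.78, with limma adjusted p-values of 0.0322 and 0.0195 (0.0673 and 0.0299 when the block was kept, which ends the call of ADR1-L1), and the change of NRG1.2 was -0.06. ADR1-L1 overlaps AT4G33310 on the other strand by 261 bases, and that gene had 11.3 to 16.2 FPKM in CLE9 and 9.50 to 12.6 FPKM in water. The median change of the 5 helpers was 0.20, where it was 0.44 for TIR receptors, 0.45 for coiled-coil receptors and 0.31 for short TIR proteins; the difference between classes was not tested. The helper and short TIR medians hung on replicate 2: over the genes tested, leaving out CLE9 replicate 2 gave -0.04 for helpers and -0.20 for short TIR proteins, and leaving out water replicate 2 gave 0.51 and 1.35.

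Short TIR proteins, some of which can act as TIR enzymes without a receptor part, had the largest median shift of the 4 classes in replicate 2. The class is mixed: RefSeq's notes name a nucleotide-binding domain for genes such as TN13 and AT1G66090, but not for AT1G72930 or RBA1. Relative to the other water libraries, water replicate 2 was higher by a median of 1.52 on the log2(FPKM + 1) scale over the 12 short TIR genes, and CLE9 replicate 2 was higher than the other CLE9 libraries by 1.22. The same shifts were 0.52 and 0.41 over all 49 receptors in water and CLE9, and -0.19 and -0.23 over all genes tested. Of the 44 receptors tested, 29 were highest in CLE9 replicate 2 within the CLE9 group (29.7% of all genes tested) and 37 were highest in water replicate 2 within the water group (30.3%), with 28 in both. The 2 libraries also had the lowest root marker sums of their groups, 2.88 FPKM in CLE9 and 20.4 FPKM in water, whose part in these shifts was not tested.

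AT1G66090 (chr1:24602146-24604763, plus strand), a TIR gene without leucine-rich repeats, showed both patterns at once. It had 5.76, 218 and 5.26 FPKM in CLE9, against 1.07, 76.2 and 1.58 FPKM in water. The 3 pairs differed by 1.704, 1.502 and 1.280, while the libraries of each group spanned a far wider range. On group alone the change was 1.495 ± 1.94 with a limma adjusted p of 0.867, and with the block the gene rose with an SE of 0.15 and an adjusted p of 0.0349 (0.0618 with a pseudocount of 0.1). Leaving out CLE9 replicate 2 alone, which leaves its water partner in, gave -0.20.

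TN13 (AT3G04210, chr3:1105963-1108069, minus strand), a truncated TIR protein of basal resistance, had 24.0, 19.1 and 44.6 FPKM in CLE9, against 6.99, 15.6 and 7.53 FPKM in water. It was the lone short TIR gene without overlap between groups, and it followed replicate 2 in water but not in CLE9. The change was 1.45 ± 0.42 with a limma adjusted p of 0.381, and without both replicate 2 libraries TN13 rose by 2.03 with an adjusted p of 0.0103. AT1G57630 had 2.34, 16.1 and 1.38 FPKM in CLE9, against 0.603, 3.24 and 1.54 FPKM in water, a change of 0.99 ± 0.80 with a limma adjusted p of 0.777. Its pairs disagreed, at 1.06, 2.01 and -0.10.

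The 4 neighbouring short TIR genes on chromosome 1 span 8053 bases, and they ranged from scarce to abundant. AT1G72930 had 82.9, 164 and 89.7 FPKM in CLE9, against 30.2, 146 and 33.2 FPKM in water, a change of 1.00 ± 0.66 with a limma adjusted p of 0.728. Without both replicate 2 libraries it rose by 1.42 with an adjusted p of 0.0026; 13.6% of its 75-base words occur in AT1G72910. Its neighbour AT1G72920 had 0.657, 30.8 and 0.800 FPKM in CLE9, against 0.522, 17.5 and 0.775 FPKM in water. Outside replicate 2, AT1G72920 was thus below 1 FPKM in both groups. AT1G72940 had 6.66, 45.8 and 3.84 FPKM in CLE9, against 5.39, 23.4 and 5.17 FPKM in water. AT1G72950 had 1.27, 4.91 and 0.863 FPKM in CLE9, against 0.690, 8.61 and 0.765 FPKM in water. In all 4 genes replicate 2 was the highest library of each group. AT2G32140, on another chromosome, had the same shape, with 0.360, 11.1 and 0.763 FPKM in CLE9, against 0.388, 5.59 and 0.634 FPKM in water. RBA1 (AT1G47370), a TIR protein that recognises a bacterial effector, was not tested, with 0.616, 0.126 and 0.843 FPKM in CLE9, against 0.118, 0.173 and 0.0464 FPKM in water.

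**Figure D3:**
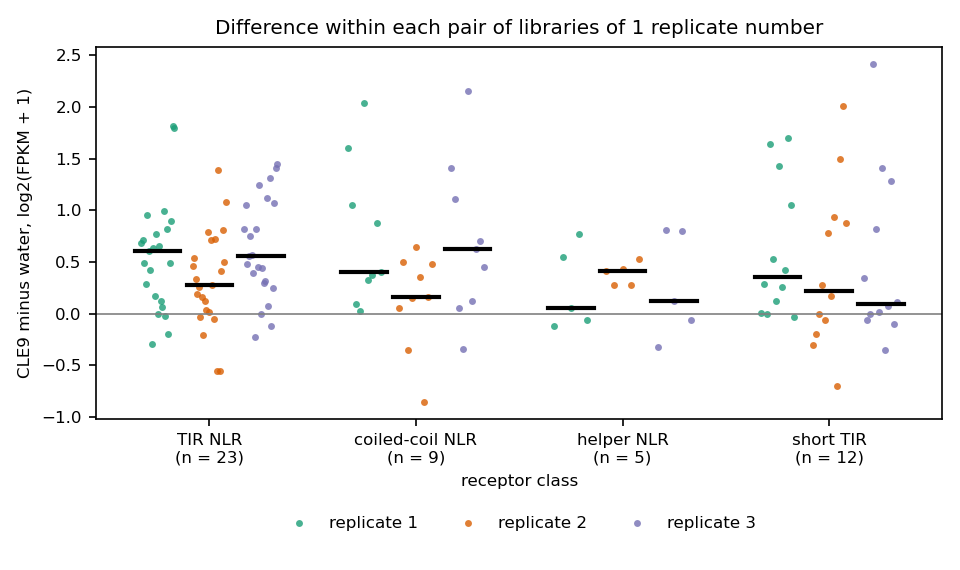
CLE9 minus water difference in log2(FPKM + 1) within each pair of libraries that share a replicate number; each point is a gene, colours are replicates and black bars are class medians over all genes of the class. The medians of the TIR receptors are 0.61, 0.28 and 0.56 in pairs 1 to 3, and those of the helpers 0.06, 0.42 and 0.12.

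Promoter sequence is given for 6 genes whose 250 bases before the RefSeq start lie outside any annotated gene: the 3 receptors that rose with the block, AT5G41740 as the neighbour of one of them, and LAZ5 and TN13, whose groups did not overlap. Capitals mark matches to the W-box (TTGACC or TTGACT), the element bound by WRKY factors, and to CGCGTT, the core of an element bound by CAMTA factors; both strands were searched, and no match of one overlaps the other. The coordinates are of RefSeq's TAIR10.1, and each line reads 5′ to 3′ on the gene's own strand: chr1:24601783-24602032 (plus) for AT1G66090, chr5:16693582-16693831 (plus) for AT5G41750, chr5:18867366-18867615 (plus) for VICTR, chr5:16688376-16688625 (plus) for AT5G41740, chr5:18114211-18114460 (plus) for LAZ5 and chr3:1108253-1108502 (minus) for TN13.
AT1G66090: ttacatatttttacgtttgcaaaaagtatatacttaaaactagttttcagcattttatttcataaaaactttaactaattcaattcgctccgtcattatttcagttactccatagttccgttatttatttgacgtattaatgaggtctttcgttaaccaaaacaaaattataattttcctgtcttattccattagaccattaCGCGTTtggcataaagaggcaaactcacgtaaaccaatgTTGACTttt
AT5G41750: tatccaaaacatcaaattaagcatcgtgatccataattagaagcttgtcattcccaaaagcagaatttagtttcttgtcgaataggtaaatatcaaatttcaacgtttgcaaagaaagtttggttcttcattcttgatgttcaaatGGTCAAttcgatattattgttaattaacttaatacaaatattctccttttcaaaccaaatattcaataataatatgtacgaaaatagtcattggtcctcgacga
VICTR: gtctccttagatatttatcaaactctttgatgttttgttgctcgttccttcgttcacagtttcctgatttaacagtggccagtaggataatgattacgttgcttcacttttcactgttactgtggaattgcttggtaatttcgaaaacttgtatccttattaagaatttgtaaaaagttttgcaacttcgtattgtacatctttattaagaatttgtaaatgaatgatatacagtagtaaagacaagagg
AT5G41740: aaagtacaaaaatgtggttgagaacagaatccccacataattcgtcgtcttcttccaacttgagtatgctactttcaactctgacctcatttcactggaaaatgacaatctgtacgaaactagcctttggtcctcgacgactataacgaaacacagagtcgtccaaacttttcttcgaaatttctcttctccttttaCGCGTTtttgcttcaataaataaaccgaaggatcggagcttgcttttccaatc
LAZ5: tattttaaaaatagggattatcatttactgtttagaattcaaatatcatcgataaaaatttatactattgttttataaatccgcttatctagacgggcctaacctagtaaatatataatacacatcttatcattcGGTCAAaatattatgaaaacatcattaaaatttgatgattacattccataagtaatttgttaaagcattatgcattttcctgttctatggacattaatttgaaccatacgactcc
TN13: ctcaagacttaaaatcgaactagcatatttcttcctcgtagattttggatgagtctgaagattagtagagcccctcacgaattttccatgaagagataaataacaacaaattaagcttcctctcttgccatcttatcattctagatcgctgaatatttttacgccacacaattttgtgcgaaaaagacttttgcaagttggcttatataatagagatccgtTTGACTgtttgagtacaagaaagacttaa
AT1G66090 held both motifs, AT5G41750, LAZ5 and TN13 a W-box, AT5G41740 a CGCGTT, and VICTR neither. AT4G19510 also had groups that did not overlap and a window outside any annotated gene. Its sequence is not shown, and it held 2 W-boxes and no CGCGTT. Over all receptors, 17 of the 49 windows (34.7%) held a W-box, against 28.4% of 27443 promoters of the same length. CGCGTT was found in 3 of 49 windows (6.1%), those of AT1G66090, AT5G41740 and ADR1-L2, against 2.6% of all promoters. A match describes the letters of the window and is not evidence of binding.

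The receptors work with a list of 31 other genes: the EDS1 family, proteins that NLRs guard or need, chaperones that fold NLRs, negative regulators that hold them down, and small RPW8-like proteins. The list was chosen with earlier results of these data known, so its counts beside all genes are not independent evidence. Of the 30 tested, 26 had a higher mean in CLE9, where 42.6% of all genes tested did. Their median change was 0.75, against -0.06 over all genes tested. With limma on group alone 0 passed in either direction (0.0% of all genes tested higher, 0.00561% lower), and 7 did not overlap, all higher (8.51%). With the block, 1 rose (1.75%), the cytoplasmic kinase PBL2, which ZAR1 watches as a decoy, and without both replicate 2 libraries 16 rose (8.41%). PBL2 had 27.3, 92.5 and 24.2 FPKM in CLE9, against 8.97, 50.4 and 8.77 FPKM in water, with a blocked adjusted p of 0.0497. That call was lost in the blocked fits with a pseudocount of 0.1 or without the filter, where 0 of the list passed.

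The EDS1 family, which reads the products of TIR enzymes, had 3 higher means and 0 calls on group alone. EDS1 (AT3G48090) had 10.02, 39.1 and 33.3 FPKM in CLE9, against 10.7, 16.2 and 10.7 FPKM in water, a change of 0.90 ± 0.52 with a limma adjusted p of 0.705. PAD4 (AT3G52430) had 19.6, 31.6 and 18.7 FPKM in CLE9, against 9.17, 21.3 and 10.4 FPKM in water, a change of 0.78 ± 0.37 with an adjusted p of 0.621. SAG101 (AT5G14930) had 32.4, 85.5 and 27.3 FPKM in CLE9, against 13.3, 61.0 and 13.9 FPKM in water, a change of 0.88 ± 0.71 with an adjusted p of 0.777. All 3 overlapped between groups, and CLE9 replicate 1 of EDS1 was below every water library. EDS1 has a near-identical neighbour in the TAIR10 genome, and the sequence shared with it was not measured. Without both replicate 2 libraries PAD4 and SAG101 rose, with limma adjusted p-values of 0.0112 and 0.0076, and EDS1 changed by 0.73 with an adjusted p of 0.418.

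Partners of coiled-coil receptors included genes whose groups did not overlap. RIN4 (AT3G25070), guarded by RPM1 and RPS2, had 59.6, 62.8 and 50.8 FPKM in CLE9, against 25.2, 43.2 and 26.5 FPKM in water, a change of 0.89 ± 0.25 with a limma adjusted p of 0.376. RKS1 (AT3G57710), a pseudokinase that joins ZAR1 to PBL2, had 6.69, 7.73 and 5.80 FPKM in CLE9, against 2.14, 4.02 and 2.19 FPKM in water, a change of 1.06 ± 0.24 with an adjusted p of 0.291. MKK2 (AT4G29810), of the cascade that SUMM2 watches, had 31.8, 42.3 and 36.4 FPKM in CLE9, against 16.4, 20.9 and 20.4 FPKM in water, a change of 0.90 ± 0.19 with an adjusted p of 0.269. None of these 3 genes overlapped between groups. NDR1 (AT3G20600), a membrane protein needed by RPM1 and RPS2, had 9.96, 37.3 and 10.8 FPKM in CLE9, against 2.58, 47.9 and 2.51 FPKM in water, a change of 1.00 ± 1.14 with a limma adjusted p of 0.841. Its pair of replicate 2 was lower in CLE9, and the groups overlapped.

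Among the chaperones, SGT1A (AT4G23570) had 72.9, 79.1 and 46.4 FPKM in CLE9, against 18.8, 50.1 and 20.6 FPKM in water, a change of 1.23 ± 0.43 with a limma adjusted p of 0.485. HSP90.2 (AT5G56030) had 70.3, 91.2 and 61.4 FPKM in CLE9, against 46.8, 37.4 and 49.2 FPKM in water, a change of 0.72 ± 0.22 with an adjusted p of 0.423. HSP90.2 did not overlap between groups, and water replicate 2 was its lowest library. The other chaperones were uneven: RAR1 changed by 0.08 ± 0.14, SGT1B by 0.17 ± 0.18 and HSP90.1 by 1.95 ± 0.83, with overlap between groups in each. The RPW8-like gene HR3 (AT3G50470) had 23.3, 13.6 and 14.3 FPKM in CLE9, against 3.62, 5.95 and 4.55 FPKM in water, without overlap. Its change of 1.64 ± 0.27 had a limma adjusted p of 0.244, the smallest of the list, and 0.0558 with the block. The 6 negative regulators, which include the F-box protein CPR1 that removes SNC1, had a median change of -0.13, with 2 of 6 higher in CLE9. Among them, BON1 (AT5G61900) had 7.40, 49.2 and 8.88 FPKM in CLE9, against 4.53, 10.8 and 5.12 FPKM in water. It changed by 1.13 ± 0.74 with a limma adjusted p of 0.728, with overlap between groups. Without both replicate 2 libraries BON1 rose by 0.65 with a limma adjusted p of 0.0489.

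**Figure D4:**
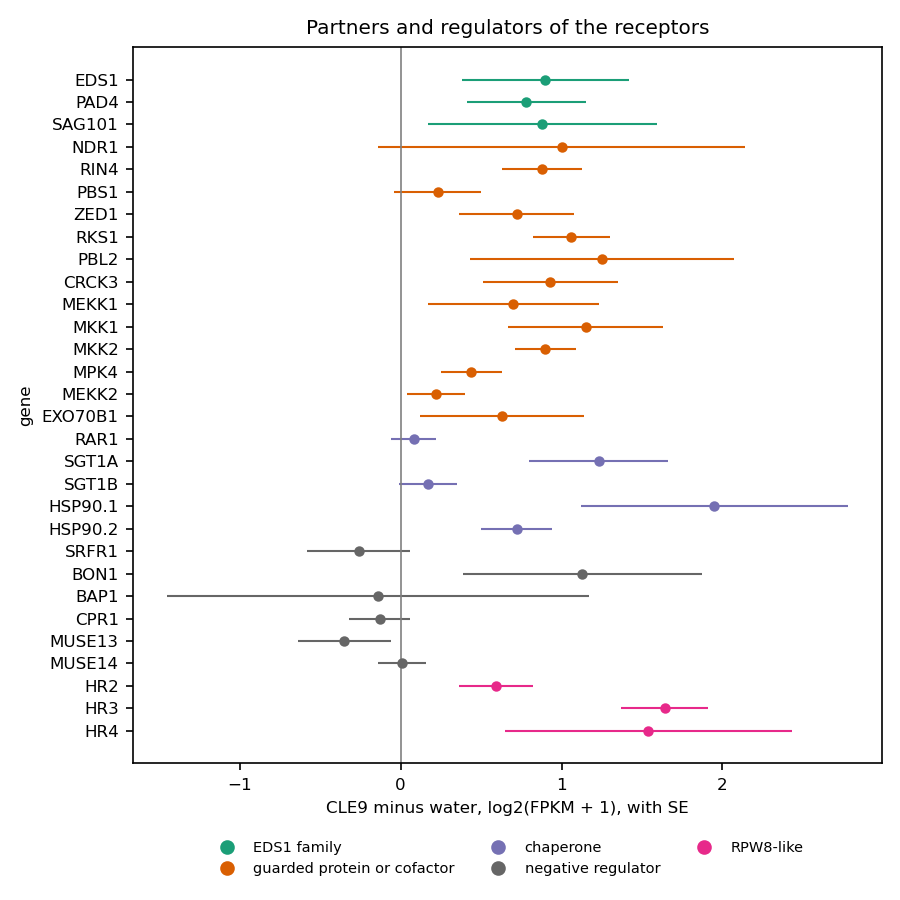
CLE9 minus water change in log2(FPKM + 1), with its standard error from the fit on group alone (n = 3 libraries each), for the 30 partner and regulator genes tested, coloured by role. Guarded proteins and cofactors lie right of 0 in all 13 cases, and the negative regulators straddle it.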

How the data were processed

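The authors deposited 1 table of FPKM per gene for 3 CLE9 and 3 water libraries of TRIzol-extracted total RNA, per the labels and file headers. The values lie on TAIR10, and DESeq2 1.16.1, featureCounts 1.5.0-p3, HISAT2 2.0.5, StringTie 1.3.3b and CASAVA 1.8 were used, per the submitters' processing notes; no source used here states which of them made the FPKM, with which settings, or with or without strand. Because FPKM are not counts, no count test was run. Values were taken as log2(FPKM + 1), which understates the change of low genes, and the 17812 of 27416 genes with a mean of at least 1 FPKM over 6 libraries were tested two-sided with limma 3.58.1 (R 4.3.3, trended variance) on group alone, with Benjamini-Hochberg adjustment over all of them and a threshold of 0.05. The fit was also run on simulated data. These were drawn gene by gene, without a shift across many genes like that of replicate 2, so the run cannot speak to that shift. The values of 1 receptor are not reported here by name, though the counts and medians include it. The receptors and the list of partner genes were chosen with earlier results of these data known.

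The replicate number of the titles was checked as a pairing: deviations from the group means correlated at 0.545, 0.743 and 0.583 (Pearson, across genes) in same-numbered libraries, all above the limit set for pairing. Water replicate 1 with CLE9 replicate 3 (0.664) and water replicate 3 with CLE9 replicate 1 (0.62) correlated more closely than the same-numbered libraries 1 and 3. They exceed the limit as well, so it does not tell replicates 1 and 3 apart, and the pairing rests largely on replicate 2. Statistics were given for receptors called with or without the block, the 4 of each class with the smallest p, all helpers and the linked sets; of the partners, for EDS1, PAD4, SAG101, NDR1 and the 6 others with the smallest p. PBL2, RAR1, SGT1B, HSP90.1, BON1, AT4G19500, AT4G19510, TAO1, AT1G72940 and AT1G72950 fall outside that rule, and their statistics were added after their values were seen. Shared sequence was measured as 75-base words of a gene's exons found elsewhere in the RefSeq TAIR10.1 genome, and promoters are the 250 bases before RefSeq starts. Names and coordinates of genes are those of the table. Depth was estimated from the spacing of low FPKM values. Alternatives were other pseudocounts, filters and scalings, array weights, the replicate block, and leaving out libraries.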

Additional observations from a re-analysis of the deposited data

How the results depend on the processing

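The calls and the medians both depended on replicate 2. With 1 library left out, the median change over the genes tested ranged from 0.334 to 0.739 for all receptors, 0.38 to 0.653 for TIR receptors, 0.416 to 0.637 for coiled-coil receptors, -0.042 to 0.513 for helpers and -0.195 to 1.346 for short TIR proteins; the lowest helper and short TIR values were without CLE9 replicate 2 and the highest without water replicate 2. The medians without both replicate 2 libraries were 0.495, 0.57, 0.647, 0.091 and 0.252 in the same order. Group alone called 1 gene of the whole table, 0 receptors and 0 partner genes. The count over all genes was 4 with a pseudocount of 5, 3 with a filter of 5 FPKM, 2 with quantile normalization, 355 with the replicate block (2 with the block and a pseudocount of 0.1, 3 with the block and no filter), 4884 with array weights and 2024 without both replicate 2 libraries; it ranged from 0 to 204 when 1 library was left out, and from 0 to 1870 when 1 pair was left out with the block. Receptor calls were 3 with the replicate block (0 with the block and a pseudocount of 0.1 or no filter), 24 with array weights and 19 without both replicate 2 libraries, 0 to 2 with 1 library left out (the 2 without water replicate 2) and 0 to 18 with 1 pair left out of the blocked fit (the 18 without replicate 2). Partner calls were 1 with the replicate block (0 under the same 2 changes), 22 with array weights, 16 without both replicate 2 libraries, and 0 to 16 with 1 pair left out of the blocked fit. Of the receptors that the rule for statistics picked, the changes of 6 turned sign. ADR1 came to 0.012 with a pseudocount of 5, ranged from -0.352 to 0.21 with single libraries left out, and from 0.05 to 0.149 without pair 1 or 3 in the blocked fit. With single libraries left out, ADR1-L2 ranged from -0.218 to 0.513, AT1G66090 from -0.195 to 3.182, CSA1 from -0.06 (-0.059 without CLE9 replicate 3) to 0.361, NRG1.2 from -0.042 to 0.23 and RLM3 from -0.099 to 0.139. NRG1.2 was also -0.025 with array weights and -0.063 without both replicate 2 libraries, blocked or not, and RLM3 -0.021 with quantile normalization and -0.147 without pair 3 in the blocked fit. Receptors outside that rule were not followed through every alternative. Without both replicate 2 libraries, TAO1 went from -0.16 to 0.03, AT1G72940 from 0.28 to -0.04 and AT1G72950 from -0.07 to 0.25. The cause was not tested. With 3 libraries in each group and 1 fragment per kilobase worth 0.0326 to 0.0504 FPKM, levels well under 1 FPKM rest on few fragments. Leaving out 1 library leaves 2 in its group, and the blocked fit without a pair has 2 pairs.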
